A study of Rattus norvegicus with 8 samples.

Results

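The enzymes that break down glucose, store it as glycogen and pass it through the pentose phosphate pathway were examined in rat thoracic aorta after repeated nitroglycerin. The 35 members were named by gene symbol, and where a symbol had several rows in the gene table the row of highest mean was used. Of the 35, 34 had a row among the 27742 rows of the table, and 33 of these were among the 12977 rows tested, which had at least 1 FPKM in at least 4 libraries. Pgd, the phosphogluconate dehydrogenase of the pentose phosphate pathway, had no row under that symbol and was not analysed here. Pygl, the liver form of glycogen phosphorylase, stayed under the filter and is given as values only.

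The nitroglycerin group held 4 libraries of thoracic aorta from wild-type male Sprague Dawley rats injected under the skin with nitroglycerin (GTN), a vasodilator that releases nitric oxide. The dose was 100 mg/kg, given 3 times daily over 3 days. The control group held 4 libraries from rats of the same strain and sex that received ethanol vehicle on that schedule. Age was labelled 12 weeks and weight 180 to 200 g in both groups. RNA was depleted of ribosomal RNA and sequenced, and levels were deposited as FPKM, read fragments scaled to transcript length and library size. The schedule serves as a model of nitrate tolerance. Whether the libraries come from separate rats is not stated in the labels. The p-values therefore measure the spread between these libraries, which may be technical.

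Glycolysis splits glucose into pyruvate in the cytosol. Pyruvate is then reduced to lactate or enters mitochondria through the pyruvate dehydrogenase complex, which the pyruvate dehydrogenase kinases switch off. Glycogen is the stored form of glucose, and the pentose phosphate pathway makes NADPH and ribose from glucose phosphate. Vascular smooth muscle is known for forming much lactate even with oxygen present.

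Most genes read higher in the nitroglycerin libraries as deposited, and the results for these enzymes are therefore given on both the deposited and a rescaled scale. Over all 12977 rows the median log2 difference was 0.30 and 86.6% of rows lay above 0. A rescaling divided each library by its median ratio to the rows' geometric means. Its factors were 1.07 to 1.22 in nitroglycerin libraries and 0.742 to 0.996 in control libraries, and after it the median log2 difference was 0.012. Aligned sequence was 6.77 to 8.39 Gb in nitroglycerin libraries and 7.48 to 8.86 Gb in control libraries. The 9 tested of 10 smooth muscle markers had a mean log2(FPKM + 1) of 5.68 to 6.18 in nitroglycerin libraries and 5.94 to 6.21 in control libraries. The difference was -0.10 (exact permutation p = 0.543), and -0.48 after rescaling (exact permutation p = 0.0571). Of these 9 markers, 4 lay above 0 and 5 below as deposited, and 1 above and 8 below after rescaling. Lowest in p were Lmod1, an actin filament nucleator, and Myl9, a myosin light chain. Lmod1 averaged 19.1 ± 4.75 FPKM in nitroglycerin libraries and 10.4 ± 1.12 FPKM in control libraries (SD, n = 4 each, adjusted p = 0.0598, limma), and Myl9 averaged 92.7 ± 27.6 FPKM in nitroglycerin libraries and 152 ± 13.6 FPKM in control libraries (adjusted p = 0.0664). Aorta is a mixture of cells, so fewer cells of a type and less RNA per cell cannot be told apart.

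None of the 33 enzymes passed on either scale. As deposited, limma on log2(FPKM + 1) with Benjamini-Hochberg adjustment called 0 members at an adjusted p under 0.05, against 1.35% of all rows, 167 higher (1.29%) and 8 lower (0.0616%). Unadjusted, 10 of 33 members (30.3%) were higher at a p under 0.05 and 0 were lower, beside 34.1% and 1.02% of all rows. In 9 members (27.3%) every nitroglycerin library stood above every control library, which was so for 24.2% of all rows. The 9 were Pfkl, Aldoa, Tpi1, Pkm, Ldha, Dlat, Pdk3, Tkt and Taldo1. The members' log2 differences had a median of 0.30 and ran between -0.16 and 0.66, and 30 of 33 (90.9%) were above 0. These shares and the median lay near those of all rows.

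After rescaling, limma called 0 members, against 0.131% of all rows, 4 higher and 13 lower. The members' median log2 difference was then -0.026, with 15 of 33 (45.5%) above 0 where all rows had 52.4%. Unadjusted, 0 members were higher and 3 (9.09%) were lower at a p under 0.05, beside 5.50% and 6.44% of all rows. The 3 were Hk1, Pygb and Pygm. Hk1 and Pygb (6.06% of members) also had every nitroglycerin library below every control library, which was so for 4.45% of all rows.

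**Figure D1:**
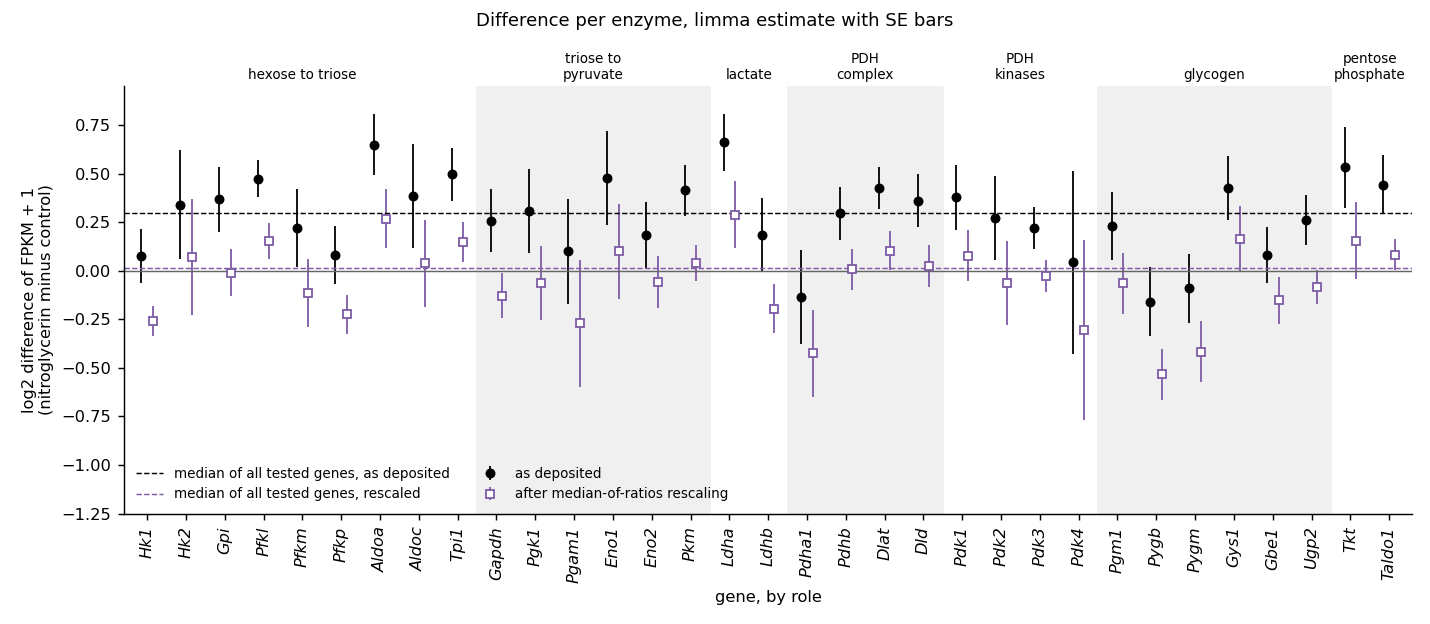
Log2 difference, nitroglycerin over control, on the log2(FPKM + 1) scale (y axis) for the 33 tested members by role (x axis), as deposited (filled circles) and after median-of-ratios rescaling (open squares), with bars of 1 SE and dashed lines at the medians of all tested rows. Most members lie above 0 as deposited, with a median of 0.30, and they centre near 0 after rescaling, with a median of -0.026.

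The number of called members depended on the filter and the weighting. With at least 1 FPKM required in all 8 libraries, limma called 5 of 32 members (15.6%) on the deposited scale, beside 12.8% of the 9229 rows in that fit. The 5 were Pfkl, Aldoa, Tpi1, Ldha and Dlat, all higher with nitroglycerin. Weighting the libraries by their estimated quality gave 7 of 33 members (21.2%), those 5 with Pkm and Taldo1, beside 14.9% of all rows. With 1 row kept per gene symbol, Pfkl alone passed (1 of 33, 3.03%, adjusted p = 0.0476 by limma), beside 1.87% of 12006 rows.

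The upstream promoter stretches of 3 members are shown for orientation: Pfkl and Ldha, which had the lowest unadjusted p among members as deposited, and Pygb, which had the lowest after rescaling. Each is the 250 bases before the annotated start, 5′ to 3′ on the gene's strand, from RefSeq on build GRCr8, where all 3 genes lie on the plus strand. Capitals mark ACGTG on either strand (so also CACGT), the core of many hypoxia response elements bound by HIF factors.
Pfkl at chr20:10663715-10663964: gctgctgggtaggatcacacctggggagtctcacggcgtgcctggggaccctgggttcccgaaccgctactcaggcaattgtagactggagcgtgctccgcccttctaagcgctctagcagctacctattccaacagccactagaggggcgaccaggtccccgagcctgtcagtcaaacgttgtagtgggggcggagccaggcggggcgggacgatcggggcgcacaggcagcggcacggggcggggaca
Ldha at chr1:106507842-106508091: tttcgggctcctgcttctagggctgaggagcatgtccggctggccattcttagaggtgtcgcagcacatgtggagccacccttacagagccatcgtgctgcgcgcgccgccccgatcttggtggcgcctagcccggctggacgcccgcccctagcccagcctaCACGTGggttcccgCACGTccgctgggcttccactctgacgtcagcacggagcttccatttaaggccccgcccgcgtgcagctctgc
Pygb at chr3:160071891-160072140: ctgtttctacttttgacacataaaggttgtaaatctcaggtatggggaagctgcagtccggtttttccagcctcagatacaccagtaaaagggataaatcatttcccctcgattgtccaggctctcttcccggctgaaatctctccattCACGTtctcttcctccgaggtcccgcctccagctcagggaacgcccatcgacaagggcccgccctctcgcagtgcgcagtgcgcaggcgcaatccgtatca
The Ldha stretch held matches whose first bases stood 87, 86 and 73 bases before the start, and the first pair overlap as the palindrome CACGTG. The Pygb stretch held 1 match, 101 bases before the start, and the Pfkl stretch held none. The 34 members with such a stretch (Pgk1 had none) had 38 in all, of which 17 (44.7%) held ACGTG, compared with 21.9% of 8244 stretches of other tested genes and 16.6% of all 33469. The related core GCGTG occurred in 50.0% of members' stretches, 44.8% of stretches of other tested genes and 25.9% of all. CACGTG itself occurred in 7.89% of members' stretches (Ldha, Pdhb and Pdk2), 8.14% of stretches of other tested genes and 5.59% of all. These are descriptions of letters in a window and not of binding.

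In the hexose steps, 9 enzymes carry glucose to triose phosphates, and all 9 had a log2 difference above 0 as deposited, with a median of 0.37, while 5 of 9 were above 0 after rescaling, with a median of 0.038. Pfkl, the liver-type subunit of phosphofructokinase, the main control point of glycolysis, had 6.03, 5.31, 5.78 and 5.78 FPKM in nitroglycerin libraries 1 to 4, against 3.93, 4.06, 3.65 and 3.72 FPKM in control libraries 1 to 4. The nitroglycerin libraries all stood above the control libraries, and the spread within each group was small. The log2 difference was 0.47 (SE 0.094), with an adjusted p of 0.0503 by limma, just over the threshold. After rescaling it was 0.15 (SE 0.093), with an adjusted p of 0.558, and the groups overlapped.

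Aldoa, the main aldolase of muscle, which splits fructose bisphosphate, had 94.8, 79.3, 90.1 and 77.5 FPKM in nitroglycerin libraries 1 to 4, against 56.6, 66.2, 48.3 and 46.6 FPKM in control libraries 1 to 4. Control 2 was the highest control library and still lay below the lowest nitroglycerin library. The log2 difference was 0.65 (SE 0.16), with an adjusted p of 0.0598 by limma, and 0.27 (SE 0.15) after rescaling, with an adjusted p of 0.532. Tpi1, triose phosphate isomerase, also had groups apart as deposited, at 10.9 ± 1.45 FPKM in nitroglycerin libraries and 7.40 ± 0.987 FPKM in control libraries (SD, n = 4 each), with nitroglycerin 1 the highest at 13.02 FPKM. The log2 difference of Tpi1 was 0.50 (SE 0.14), with an adjusted p of 0.0660, and 0.15 after rescaling. A near-identical row read 3.59 ± 0.206 FPKM in nitroglycerin libraries and 2.96 ± 0.936 FPKM in control libraries, so reads of Tpi1 may be split between them.

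Hk1, the housekeeping hexokinase that phosphorylates glucose on entry, had 6.65, 6.27, 7.52 and 6.74 FPKM in nitroglycerin libraries 1 to 4, against 4.91, 7.86, 6.54 and 6.51 FPKM in control libraries 1 to 4. The groups overlapped as deposited, with a log2 difference of 0.077 (SE 0.14) and an adjusted p of 0.698 by limma. On the rescaled values it had 5.74, 5.87, 6.33 and 5.54 in nitroglycerin libraries 1 to 4, against 6.62, 7.89, 7.20 and 7.20 in control libraries 1 to 4. There every nitroglycerin library was below every control library, with a log2 difference of -0.26 (SE 0.079) and an adjusted p of 0.264.

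The other hexose enzymes overlapped between groups. Hk2, the inducible hexokinase, averaged 3.00 ± 0.935 FPKM in nitroglycerin libraries and 2.24 ± 1.21 FPKM in control libraries (SD, n = 4 each), a log2 difference of 0.34 as deposited and 0.071 after rescaling. Gpi, glucose phosphate isomerase, averaged 43.4 ± 6.89 FPKM in nitroglycerin libraries and 33.4 ± 5.33 FPKM in control libraries, a log2 difference of 0.37 as deposited and -0.011 after rescaling. Pfkm and Pfkp, the muscle and platelet phosphofructokinase subunits, had log2 differences of 0.22 and 0.083 as deposited and of -0.11 and -0.23 after rescaling. For Aldoc, the brain-type aldolase, they were 0.38 as deposited and 0.038 after rescaling.

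From triose to pyruvate, the 6 enzymes had a median log2 difference of 0.28 as deposited and -0.060 after rescaling. Pkm, the pyruvate kinase of most tissues, which makes pyruvate and ATP, had 36.6, 32.9, 36.5 and 33.3 FPKM in nitroglycerin libraries 1 to 4, against 23.2, 30.2, 26.6 and 23.9 FPKM in control libraries 1 to 4. The groups were apart, although control 2 came close to the lowest nitroglycerin library. The log2 difference was 0.41 (SE 0.13), with an adjusted p of 0.0785 by limma, and 0.038 (SE 0.092) after rescaling, with an adjusted p of 0.908. Eno1, the ubiquitous enolase, had 53.0, 41.8, 54.2 and 28.5 FPKM in nitroglycerin libraries 1 to 4, against 30.0, 38.6, 22.5 and 33.5 FPKM in control libraries 1 to 4. Nitroglycerin 4 lay below several control libraries, the groups overlapped, and the log2 difference was 0.48 (SE 0.24), with an adjusted p of 0.182, and 0.10 after rescaling.

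Gapdh, the dehydrogenase that makes NADH in this stretch and that is often used as a reference transcript, was the most abundant member and averaged 124 ± 10.7 FPKM in nitroglycerin libraries and 104 ± 17.4 FPKM in control libraries (SD, n = 4 each). Its log2 difference was 0.26 as deposited (adjusted p = 0.269, limma) and -0.13 after rescaling (adjusted p = 0.704). A near-identical row, LOC108351137, held 51.7 ± 5.75 FPKM in nitroglycerin libraries and 44.3 ± 7.28 FPKM in control libraries, so the Gapdh value is uncertain. Pgk1, the phosphoglycerate kinase that yields ATP, averaged 22.1 ± 5.54 FPKM in nitroglycerin libraries and 17.7 ± 4.37 FPKM in control libraries, a log2 difference of 0.31 as deposited and -0.062 after rescaling. Pgam1, a phosphoglycerate mutase, and Eno2, the neuronal enolase, had log2 differences of 0.10 and 0.18 as deposited and of -0.27 and -0.057 after rescaling. A near-identical row of Eno2, LOC100911625, averaged 1.73 ± 0.263 FPKM in nitroglycerin libraries and 1.38 ± 0.438 FPKM in control libraries. With that row added, the log2 difference of Eno2 was 0.24 as deposited, so the Eno2 value is uncertain too.

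**Figure D2:**
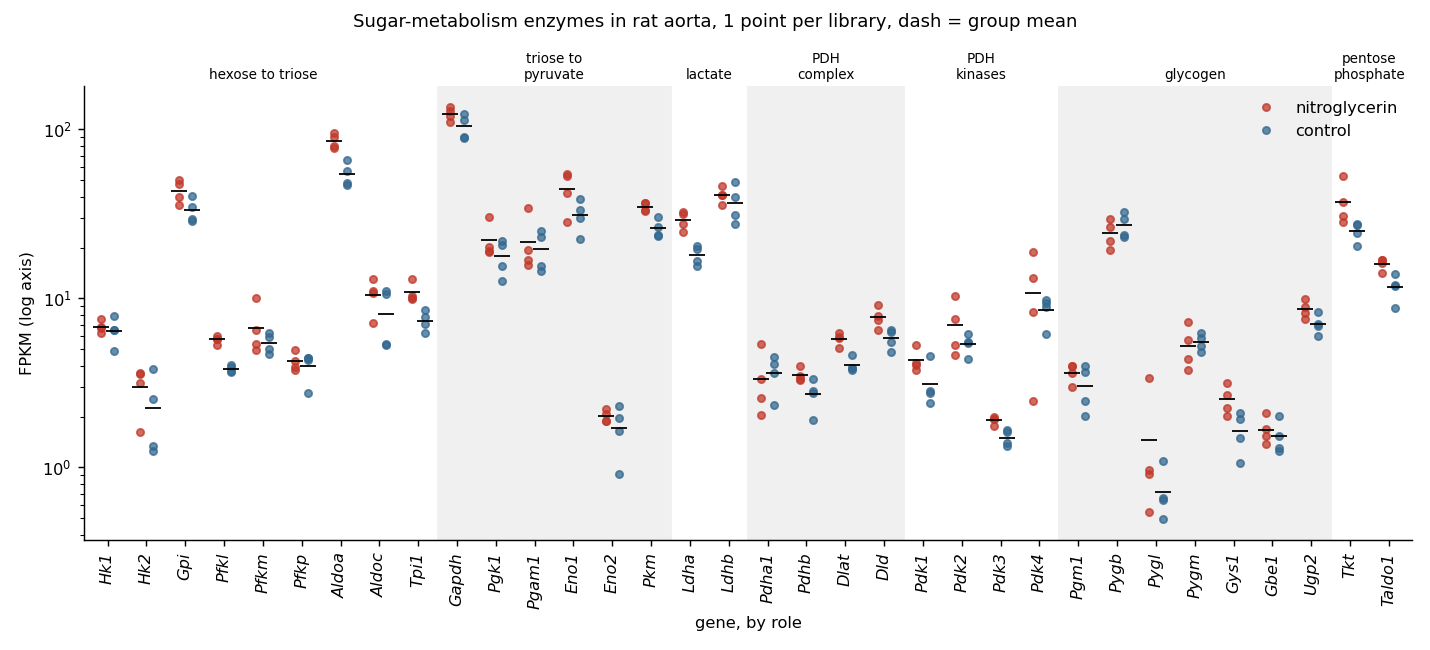
Deposited FPKM on a log axis for the 34 members with a row, by role along the x axis, with 1 point per library, nitroglycerin left of control for each gene, and a dash at the group mean. Gapdh and Aldoa are highest, averaging 124 and 85.4 FPKM in nitroglycerin libraries, and the groups of Pfkl and Ldha are apart while those of Pygb and Hk1 overlap.

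Lactate dehydrogenase interconverts pyruvate and lactate, with a muscle-type subunit (Ldha) and a heart-type subunit (Ldhb), whose log2 differences had a median of 0.42 as deposited and of 0.047 once rescaled. Ldha had 24.7, 32.6, 27.5 and 31.5 FPKM in nitroglycerin libraries 1 to 4, against 20.5, 19.5, 16.6 and 15.5 FPKM in control libraries 1 to 4. All nitroglycerin libraries were above all control libraries, and the log2 difference was 0.66 (SE 0.15), the largest of the 33 members as deposited, with an adjusted p of 0.0573 by limma. After rescaling it was 0.29 (SE 0.17), with an adjusted p of 0.548. Ldhb had 40.9, 35.8, 41.1 and 46.1 FPKM in nitroglycerin libraries 1 to 4, against 27.4, 48.7, 39.6 and 31.1 FPKM in control libraries 1 to 4, with control 2 the highest of the 8 libraries. Its log2 difference was 0.18 (SE 0.19), with an adjusted p of 0.490, and -0.19 after rescaling.

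A ratio of 2 enzymes within a library does not depend on the scaling, and 10 such ratios were tested. Each two-sided exact permutation test used all 70 splits of 4 against 4, which allow no p below 0.0286. The Ldhb to Ldha ratio was 1.66, 1.10, 1.49 and 1.47 in nitroglycerin libraries 1 to 4, against 1.33, 2.50, 2.39 and 2.01 in control libraries 1 to 4. It averaged 1.43 ± 0.235 in nitroglycerin libraries and 2.06 ± 0.527 in control libraries (SD, n = 4 each), a log2 difference of -0.50 (exact permutation p = 0.114, 0.381 adjusted over the 10 ratios). Control 1 lay within the nitroglycerin range, and with each of the 8 libraries left out in turn the log2 difference ran between -0.70, without control 1, and -0.38. The Pfkp to Pfkl ratio averaged 0.741 ± 0.0797 in nitroglycerin libraries and 1.04 ± 0.235 in control libraries, a log2 difference of -0.47 (exact permutation p = 0.114, 0.381 adjusted), and again control 1 lay within the nitroglycerin range. With each library left out in turn that difference ran between -0.65, without control 1, and -0.38.

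The pyruvate dehydrogenase complex, with 4 members, had a median log2 difference of 0.33 as deposited and 0.016 after rescaling. Dlat, its acetyltransferase core, had 6.26, 5.83, 5.89 and 5.07 FPKM in nitroglycerin libraries 1 to 4, against 3.86, 4.62, 3.78 and 3.88 FPKM in control libraries 1 to 4. The groups did not overlap, and the log2 difference was 0.43 (SE 0.11), with an adjusted p of 0.0615 by limma, and 0.10 after rescaling, with an adjusted p of 0.731. Dld, the dihydrolipoamide dehydrogenase shared with other such complexes, had 9.18, 7.48, 6.48 and 7.85 FPKM in nitroglycerin libraries 1 to 4, against 4.85, 6.50, 5.50 and 6.37 FPKM in control libraries 1 to 4, and 1 nitroglycerin library fell just under the highest control library. The log2 difference of Dld was 0.36 (SE 0.14), with an adjusted p of 0.104, and 0.024 after rescaling. Pdhb, the beta subunit of the first enzyme, averaged 3.51 ± 0.330 FPKM in nitroglycerin libraries and 2.71 ± 0.592 FPKM in control libraries (SD, n = 4 each), a log2 difference of 0.30 as deposited and 0.0069 after rescaling. Pdha1, the alpha subunit, was among the 3 members below 0, with a log2 difference of -0.13 (adjusted p = 0.698, limma), and -0.42 after rescaling. As deposited it was 0.0093 when the near-identical Pdha1l1 row was added to it.

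The 4 kinases that inactivate this complex had log2 differences with a median of 0.24 as deposited and of -0.044 once rescaled. Pdk1 had 5.29, 3.79, 4.01 and 4.13 FPKM in nitroglycerin libraries 1 to 4, against 2.41, 4.54, 2.85 and 2.75 FPKM in control libraries 1 to 4. Control 2 stood inside the nitroglycerin range, and the log2 difference was 0.38 (SE 0.17), with an adjusted p of 0.143 by limma, and 0.078 after rescaling. Pdk3 had 1.94, 1.75, 1.99 and 1.94 FPKM in nitroglycerin libraries 1 to 4, against 1.33, 1.62, 1.40 and 1.65 FPKM in control libraries 1 to 4, so the groups were apart by a small margin. Pdk3 had a log2 difference of 0.22 (SE 0.11), with an adjusted p of 0.177, and -0.026 after rescaling.

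Pdk4, the kinase known to respond to fatty acids and fasting, varied widely between nitroglycerin libraries, with 18.9, 2.46, 8.26 and 13.3 FPKM in nitroglycerin libraries 1 to 4, against 8.93, 9.85, 9.44 and 6.15 FPKM in control libraries 1 to 4. Nitroglycerin 1 and 2 were the highest and the lowest of the 8, and the control libraries lay between. The log2 difference was 0.045 (SE 0.47), with an adjusted p of 0.949 by limma, and it was -0.30 after rescaling and -0.30 as deposited without nitroglycerin 1. Pdk2, the broadly expressed kinase, was also highest in nitroglycerin 1, with 10.4, 4.64, 5.26 and 7.51 FPKM in nitroglycerin libraries 1 to 4, against 5.44, 5.50, 6.12 and 4.40 FPKM in control libraries 1 to 4, and its log2 difference was 0.27 as deposited, 0.081 without that library and -0.063 after rescaling.

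**Figure D3:**
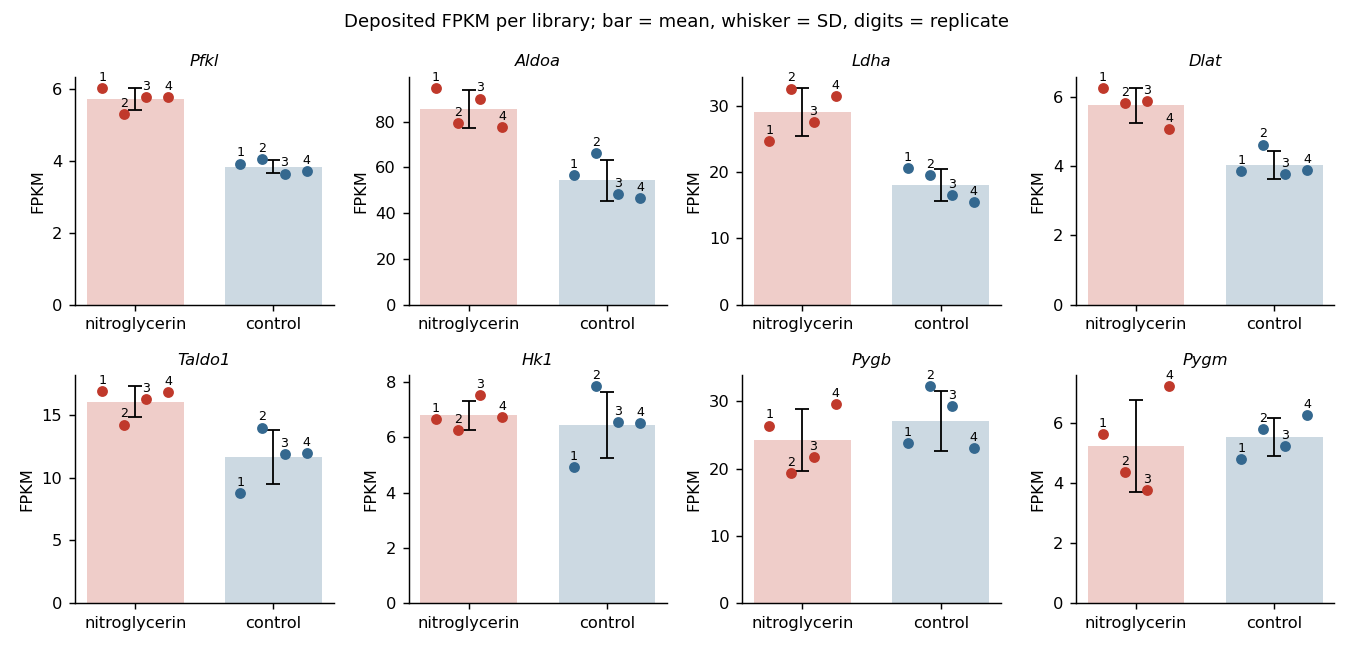
Deposited FPKM of 8 members, nitroglycerin left of control, with 1 numbered point per library, bars at the mean and whiskers of 1 SD (n = 4 per group). The groups are apart for Pfkl, Aldoa, Ldha, Dlat and Taldo1 and overlap for Hk1, Pygb and Pygm on this deposited scale.

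Glycogen enzymes stood lowest among the role groups, with a median log2 difference over 6 tested members of 0.16 as deposited and -0.12 after rescaling, and 5 of 6 were below 0 after rescaling. Gys1, the glycogen synthase of muscle and most tissues, had 3.18, 2.26, 2.02 and 2.70 FPKM in nitroglycerin libraries 1 to 4, against 1.49, 1.06, 1.93 and 2.09 FPKM in control libraries 1 to 4. Nitroglycerin 3 lay just under the highest control library, and the log2 difference was 0.43 (SE 0.16), with an adjusted p of 0.109 by limma, and 0.17 after rescaling. Ugp2, which makes the UDP-glucose used by the synthase, had 9.94, 7.55, 8.14 and 8.91 FPKM in nitroglycerin libraries 1 to 4, against 6.01, 8.29, 6.86 and 7.02 FPKM in control libraries 1 to 4. It had a log2 difference of 0.26 (SE 0.13), with an adjusted p of 0.179, and -0.082 after rescaling. Pgm1, the phosphoglucomutase that links glycogen to glycolysis, averaged 3.64 ± 0.469 FPKM in nitroglycerin libraries and 3.02 ± 0.932 FPKM in control libraries (SD, n = 4 each), and Gbe1, the branching enzyme, averaged 1.67 ± 0.308 FPKM in nitroglycerin libraries and 1.53 ± 0.354 FPKM in control libraries. Their log2 differences were 0.23 and 0.081 as deposited and -0.065 and -0.15 after rescaling.

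Pygb, the brain form of glycogen phosphorylase, which releases glucose units from glycogen, was the most abundant glycogen member and had 26.4, 19.3, 21.8 and 29.6 FPKM in nitroglycerin libraries 1 to 4, against 23.8, 32.3, 29.3 and 23.1 FPKM in control libraries 1 to 4. As deposited the groups overlapped, and the log2 difference was -0.16 (SE 0.18), with an adjusted p of 0.516 by limma. Rescaled values were 22.8, 18.1, 18.3 and 24.3 in nitroglycerin libraries 1 to 4, against 32.0, 32.4, 32.3 and 25.5 in control libraries 1 to 4. All nitroglycerin libraries were then below all control libraries, and the log2 difference was -0.53 (SE 0.13), the lowest of the 33 members, with an adjusted p of 0.183.

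Pygm, the muscle form, had 5.65, 4.37, 3.76 and 7.24 FPKM in nitroglycerin libraries 1 to 4, against 4.82, 5.82, 5.23 and 6.27 FPKM in control libraries 1 to 4, with overlap on both scales. Its log2 difference was -0.090 on the deposited values and -0.42 (SE 0.15) after rescaling, with an adjusted p of 0.347. For skeletal muscle markers, the mean log2(FPKM + 1) of the 5 tested of 14 markers was 1.91 to 2.19 in nitroglycerin libraries and 2.17 to 2.44 in control libraries (exact permutation p = 0.0857, and 0.0286 after rescaling, 0.171 adjusted over the marker lists on either scale). Of the 5, 2 lay above 0 and 3 below as deposited, and 1 above and 4 below after rescaling. Ckm, the muscle creatine kinase, fell to 5.06 ± 1.35 FPKM in nitroglycerin libraries, against 9.78 ± 0.825 FPKM in control libraries (SD, n = 4 each, adjusted p = 0.0492 as deposited and 0.0351 after rescaling, limma). Mybpc2, a fast muscle myosin-binding protein, read the other way as deposited, at 1.63 ± 0.381 FPKM in nitroglycerin libraries and 1.02 ± 0.240 FPKM in control libraries (adjusted p = 0.126), and its log2 difference was 0.16 after rescaling. As deposited, the Ckm call was lost with any 1 of the 8 libraries left out. The part of skeletal muscle RNA in the Pygm values was not tested.

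The synthase to phosphorylase ratio, Gys1 to Pygb, had 0.120, 0.117, 0.0926 and 0.0912 in nitroglycerin libraries 1 to 4, against 0.0626, 0.0328, 0.0656 and 0.0905 in control libraries 1 to 4. It was the 1 of 10 ratios whose groups did not overlap, although control 4 came within a small margin of the lowest nitroglycerin value. It averaged 0.105 ± 0.0154 in nitroglycerin libraries and 0.0629 ± 0.0236 in control libraries (SD, n = 4 each), a log2 difference of 0.82 (two-sided exact permutation p = 0.0286, the smallest possible, and 0.286 adjusted over the 10 ratios). With 1 FPKM added to both enzymes the log2 difference was 0.59 (exact permutation p = 0.0571). Among the other ratios, Pygm to Pygb differed by 0.053 on the log2 scale and Hk2 to Hk1 by 0.42, with exact permutation p of 0.800 and 0.314.

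**Figure D4:**
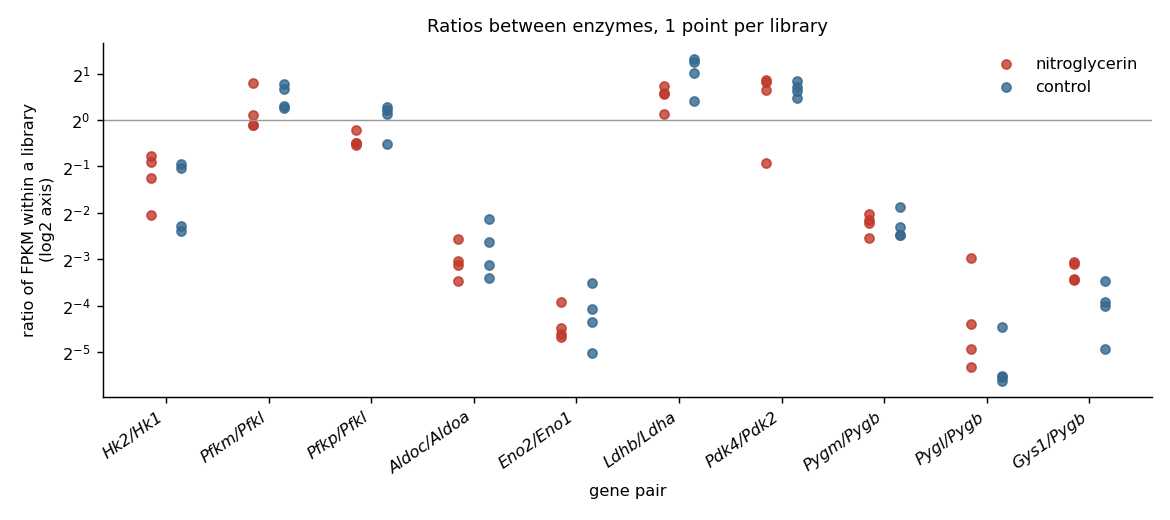
Ratio of the FPKM of 2 members within a library, on a log2 axis, for 10 pairs, nitroglycerin left of control, with 1 point per library and a line at a ratio of 1. The groups are apart for Gys1 to Pygb alone, with ratios of 0.0912 to 0.120 in nitroglycerin libraries and 0.0328 to 0.0905 in control libraries.

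In the pentose phosphate pathway, Tkt and Taldo1 both stood apart between groups as deposited. Taldo1, the transaldolase of its reversible branch, had 16.9, 14.2, 16.3 and 16.8 FPKM in nitroglycerin libraries 1 to 4, against 8.78, 14.0, 11.9 and 11.9 FPKM in control libraries 1 to 4. Control 2 came just below the lowest nitroglycerin library, and the log2 difference was 0.44 (SE 0.15), with an adjusted p of 0.0882 by limma, and 0.083 after rescaling, with an adjusted p of 0.727. Tkt, the transketolase of that branch, had 53.2, 28.3, 30.7 and 37.2 FPKM in nitroglycerin libraries 1 to 4, against 24.5, 27.2, 27.5 and 20.5 FPKM in control libraries 1 to 4, with nitroglycerin 1 well above the rest. Its log2 difference was 0.53 (SE 0.21), with an adjusted p of 0.113, and 0.16 after rescaling. Without nitroglycerin 1 it was 0.35 as deposited (adjusted p = 0.206, limma) and -0.022 after rescaling.

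Nitroglycerin 1 differed from the other libraries in adipocyte markers. The labels name aorta as the tissue, but their extraction text mentions adipose. The mean log2(FPKM + 1) of the 5 tested of 9 general adipocyte markers was 4.46 in nitroglycerin 1, 2.49 to 2.70 in the other nitroglycerin libraries and 1.74 to 2.63 in control libraries (exact permutation p = 0.114 between groups). None of the 9 was listed at 0 throughout a group. Of the brown adipocyte markers, 2 of 8 were tested, and Dio2 and Elovl3 were each listed at 0 in 7 of the 8 libraries. Ucp1, the uncoupling protein that defines brown fat, had 11.5, 0.269, 0.0300 and 0.447 FPKM in nitroglycerin libraries 1 to 4, against 5.10, 0.0854, 0.198 and 0 FPKM in control libraries 1 to 4. It was highest in library 1 of both groups and stayed under the filter. Pygl, found in liver and fat, had 3.38, 0.913, 0.543 and 0.970 FPKM in nitroglycerin libraries 1 to 4, against 1.08, 0.657, 0.644 and 0.495 FPKM in control libraries 1 to 4. Tkt, Pdk2, Pdk4 and Pygl were all highest in nitroglycerin 1. A covariate was built from the tested general and brown adipocyte markers together, with a mean of 3.89 in nitroglycerin 1 and 1.69 to 2.51 in the other libraries. With it the log2 differences were -0.62 (SE 0.45) for Pdk4, -0.079 (SE 0.18) for Pdk2 and 0.20 (SE 0.18) for Tkt, all lower than without it. These genes were picked as highest in nitroglycerin 1, and other members moved the other way. Pgk1 went from 0.31 to 0.48 (SE 0.26) and Pgm1 from 0.23 to 0.45 (SE 0.18). The part of fat RNA in these values was not tested.

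**Figure D5:**
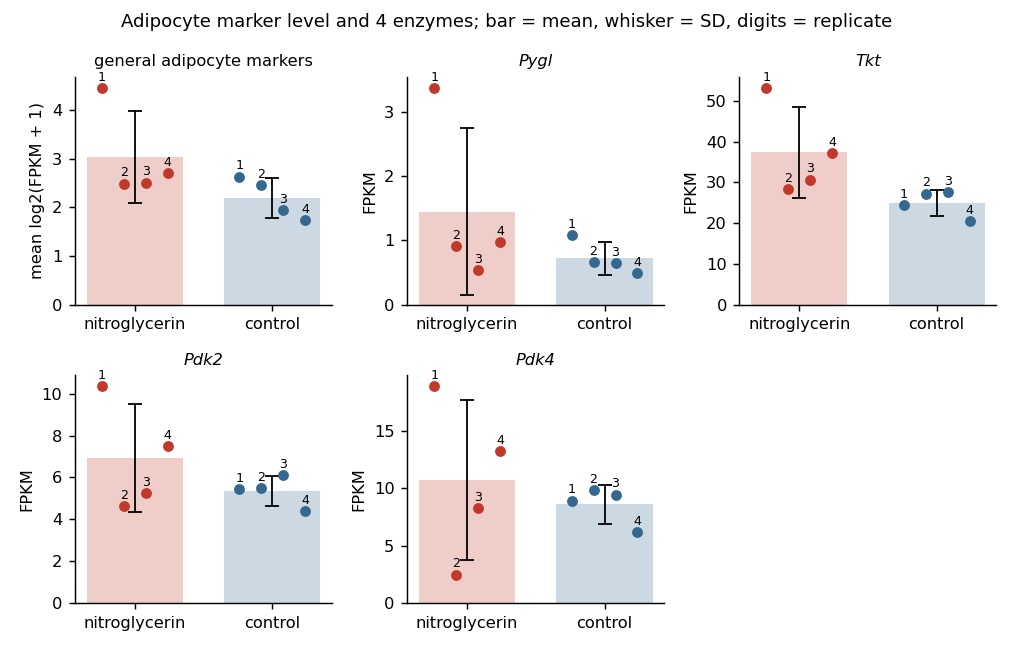
Mean log2(FPKM + 1) of the general adipocyte markers and FPKM of Pygl, Tkt, Pdk2 and Pdk4, nitroglycerin left of control, with 1 numbered point per library, bars at the mean and whiskers of 1 SD (n = 4 per group). Nitroglycerin 1 is highest in every panel, with an adipocyte level of 4.46 where the other 7 libraries lie between 1.74 and 2.70.

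Nitroglycerin 1 held the highest value for 18 of 34 members as deposited and for 14 of 34 after rescaling. Control 1 stood at the other end, with the lowest value for 17 of 34 members as deposited and for 3 of 34 after rescaling. The 100 rows of highest mean over all 8 libraries held 71.4% of summed FPKM in control 1. They held 47.4 to 50.4% in nitroglycerin libraries and 51.7 to 61.0% in the other control libraries. The 34 members together held 0.334 to 0.415% of summed FPKM in nitroglycerin libraries and 0.210 to 0.336% in control libraries. Endothelial markers also read higher, at 2.68 to 3.07 in nitroglycerin libraries and 2.08 to 2.51 in control libraries on the same log2 scale (8 of 10 tested). Their difference was 0.55 (exact permutation p = 0.0286, 0.171 adjusted), and 0.24 after rescaling (exact permutation p = 0.114). Of these 8 markers, 8 lay above 0 as deposited, and 6 above and 2 below after rescaling. The macrophage markers read 2.34 to 2.80 in nitroglycerin libraries and 2.00 to 2.35 in control libraries (7 of 8 tested), a difference of 0.50 (exact permutation p = 0.0571, 0.171 adjusted), and of 0.20 after rescaling (exact permutation p = 0.0857). Of these 7 markers, 7 lay above 0 as deposited, and 5 above and 2 below after rescaling. In both the endothelial and the macrophage list, limma called 1 marker higher as deposited, beside 1.29% of all rows, and 0 after rescaling. Each of these calls was lost in 13 alternative fits and kept in 5. The part of these cell types in the enzyme values was not tested.

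Further genes of the same pathways, in 6 lists of transporters, other enzymes and regulators, gave 0 calls as well. Of 112 genes, 100 had a row and 77 were tested, and limma with Benjamini-Hochberg adjustment called 0 on either scale. Unadjusted, 23 of the 77 were higher and 1 lower at a p under 0.05 as deposited, beside 34.1% and 1.02% of all rows. After rescaling 1 was higher and 2 lower, beside 5.50% and 6.44% of all rows. As deposited, the median of their log2 differences was 0.31, and on the rescaled values it was 0.014. Lowest in p was Ldhd, the D-lactate dehydrogenase of mitochondria, at 3.84 ± 0.825 FPKM in nitroglycerin libraries and 1.98 ± 0.447 FPKM in control libraries (SD, n = 4 each), with a log2 difference of 0.70 (SE 0.16) and an adjusted p of 0.0589. The rescaled log2 difference was 0.41, with an adjusted p of 0.288.

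In the list of 24 further glycogen genes, 14 were tested, with a median log2 difference of 0.36 as deposited and of 0.053 once rescaled. Phkg1, the catalytic subunit of muscle phosphorylase kinase, averaged 4.88 ± 1.16 FPKM in nitroglycerin libraries and 2.57 ± 0.647 FPKM in control libraries (SD, n = 4 each), a log2 difference of 0.72 with an adjusted p of 0.0615 by limma, and 0.42 after rescaling. Pdp1, the phosphatase that reactivates pyruvate dehydrogenase, was the 1 gene lower at an unadjusted p, with 0.449, 0.926, 1.82 and 2.58 FPKM in nitroglycerin libraries 1 to 4, against 4.41, 8.57, 1.51 and 4.66 FPKM in control libraries 1 to 4. Control 3 lay within the nitroglycerin range, and the log2 difference was -1.18 (SE 0.41), with an adjusted p of 0.0926, and -1.43 after rescaling, with an adjusted p of 0.235. Pdhx, the binding protein of the same complex, averaged 2.36 ± 0.281 FPKM in nitroglycerin libraries and 1.64 ± 0.278 FPKM in control libraries, a log2 difference of 0.35 as deposited and 0.094 after rescaling.

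Among sugar transporters, Slc2a8 (GLUT8) averaged 3.31 ± 0.491 FPKM in nitroglycerin libraries and 2.14 ± 0.277 FPKM in control libraries (SD, n = 4 each; adjusted p = 0.0638, limma) and Slc37a4, the glucose 6-phosphate transporter of the endoplasmic reticulum, 5.06 ± 1.10 FPKM in nitroglycerin libraries and 3.48 ± 0.524 FPKM in control libraries (adjusted p = 0.0926). Slc2a1 (GLUT1), the basal glucose transporter, averaged 6.06 ± 1.27 FPKM in nitroglycerin libraries and 4.71 ± 0.907 FPKM in control libraries. The log2 differences of Slc2a8, Slc37a4 and Slc2a1 were 0.46, 0.43 and 0.30 as deposited and 0.17, 0.11 and -0.022 after rescaling. Galk1, the galactokinase, averaged 7.41 ± 0.891 FPKM in nitroglycerin libraries and 4.89 ± 0.818 FPKM in control libraries (adjusted p = 0.0639), a log2 difference of 0.52 as deposited and 0.19 after rescaling. In the pentose phosphate list, Rpia, the ribose phosphate isomerase, and Pgls, the lactonase, had log2 differences of 0.36 and 0.24 as deposited and of 0.062 and -0.069 after rescaling. The oxygen sensing hydroxylases Egln1 and Egln2 differed by 0.35 and 0.31 on the log2 scale as deposited and by 0.0099 and -0.044 after rescaling.

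Targets of the hypoxia response, a program known to include several glycolytic genes, were described from a list of 23 genes, 19 of them tested. Limma called 0 on either scale. At an unadjusted p under 0.05, 4 of the 19 were higher and 0 lower as deposited, beside 34.1% and 1.02% of all rows. After rescaling 1 was higher and 1 lower, beside 5.50% and 6.44% of all rows. The median of their log2 differences was 0.43 on the deposited scale and 0.12 on the rescaled one, where all rows had 0.30 and 0.012. Bnip3l, a mitophagy receptor, averaged 7.09 ± 0.784 FPKM in nitroglycerin libraries and 4.51 ± 0.800 FPKM in control libraries (SD, n = 4 each), a log2 difference of 0.56 with an adjusted p of 0.0595, and 0.23 after rescaling. Ndrg1, a stress-responsive gene, averaged 58.1 ± 15.5 FPKM in nitroglycerin libraries and 35.7 ± 3.98 FPKM in control libraries, a log2 difference of 0.66 with an adjusted p of 0.0773, and 0.28 after rescaling.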

How the data were processed

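The gene table holds FPKM per gene and library, deposited by the authors. Tools in the submitters' processing notes are StringTie 1.3.0, HISAT2 2.0 and Bowtie 0.12.2, and builds are Rnor_6.0 and mm8, without roles. The deposited lncRNA table gives coverage (signal) and FPKM, per the file headers. Its coverage to FPKM ratio was used as aligned gigabases, and its deposited coding-potential score columns were not used. FPKM are relative, so abundant transcripts lower all others, and they are not counts.

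Values were tested as log2(FPKM + 1) with limma 3.58.1 (mean-variance trend, R 4.3.3) over all 12977 rows, with Benjamini-Hochberg adjustment at 0.05, so differences understate those of low genes. Members and lists were chosen with earlier results of these data known. All library values were given for the pair of lowest p in each role, other members by means or differences, and the pair of lowest p in each further list, apart from a result that is not reported here. Fuller values of Tpi1, Hk1, Pdk2, Pdk4, Pygb, Pygm and Pygl, and Slc2a1, Ucp1 and the genes under other observations, were added after their values were seen. For 4 against 4 libraries, two-sided exact permutation tests compared ratios and marker levels. The fit was tested on simulated data. Figures used Python 3.11.15 and matplotlib 3.10.9. Alternatives covered pseudocount, filters, scaling, weights, the replicate block, an adipocyte covariate, 1 row per symbol and left-out libraries. Near-identical copies (9 rows) and rescaling with a left-out library were added after seeing the data.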

Additional observations from a re-analysis of the deposited data

Results flagged for a closer look

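Within the groups of 4 libraries, 158 sets of values of the named genes, ratios and marker levels were examined for a library far from the other 3 (Dixon's test), and 14 (8.86%) had one, where chance flags about 1 in 20. Among the members, Tpi1 in nitroglycerin 1 was 13.02 FPKM against 9.98 to 10.4 in the other nitroglycerin libraries, and Pgk1 in nitroglycerin 3 was 30.3 FPKM against 18.9 to 20.1. Pfkp in control 1 was 2.75 FPKM against 4.33 to 4.45 in the other control libraries, and Dlat in control 2 was 4.62 FPKM against 3.78 to 3.88. The Pfkp to Pfkl ratio in nitroglycerin 3 was 0.859 against 0.684 to 0.714, and the Pygl to Pygb ratio in control 1 was 0.0456 against 0.0204 to 0.0219.

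Outside the members, Ldhd in nitroglycerin 2 was 2.61 FPKM against 4.15 to 4.39, Rpia in nitroglycerin 1 was 2.94 FPKM against 4.36 to 4.59, and Egln2 in nitroglycerin 1 was 10.8 FPKM against 9.55 to 9.71. Myl9, a smooth muscle light chain, in nitroglycerin 4 was 134 FPKM against 74.5 to 84.4. Dcn, a fibroblast proteoglycan, in nitroglycerin 2 was 108 FPKM against 132 to 137, and in control 2 was 115 FPKM against 57.9 to 66.5. Cfd, an adipocyte-secreted protease, in nitroglycerin 1 was 39.7 FPKM against 9.27 to 9.61, and the general adipocyte marker level there was 4.46 against 2.49 to 2.70 on the log2 scale.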

How the results depend on the processing

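No member passed under 0.1 FPKM as pseudocount (7 genes called), no filter (26), rescaling (17), quantile normalization (15, of them 5 higher and 10 lower), the adipocyte covariate (0, with 3266 at an unadjusted p under 0.05) or any left-out library (3 to 209 genes, and 0 to 32 with rescaling, added after seeing the data). Members passed with at least 1 FPKM in all 8 libraries (5 of 1178 genes), array weights (7 of 1936) and 1 row per symbol (1, Pfkl, adjusted p 0.0476). Correlations of libraries' deviations from group means were 0.13, -0.011, -0.012 and 0.12 for same-numbered pairs and -0.18 to 0.087 for other pairs. Whether libraries were paired by number was not tested. With the replicate block limma called 0 genes, 4037 at an unadjusted p under 0.05. The members' median difference was -0.026 after rescaling, 0.026 under quantile normalization, 0.20 to 0.37 with a library left out and -0.042 to 0.0082 with both rescaling and a library left out. Members turned below 0 after rescaling: Hk1 (-0.26), Gpi (-0.011), Pfkm (-0.11), Pfkp (-0.23), Gapdh (-0.13), Pgk1 (-0.062), Pgam1 (-0.27), Eno2 (-0.057), Ldhb (-0.19), Pdk2 (-0.063), Pdk3 (-0.026), Pdk4 (-0.30), Pgm1 (-0.065), Gbe1 (-0.15) and Ugp2 (-0.082), as did the fibroblast marker level (-0.14). Under quantile normalization Hk1 (-0.22), Pfkm (-0.080), Pfkp (-0.22), Pgam1 (-0.20), Eno2 (-0.085), Ldhb (-0.047), Pdhb (-0.0065), Pdk2 (-0.023), Pdk3 (-0.056), Pdk4 (-0.23), Pgm1 (-0.078), Gbe1 (-0.18) and Ugp2 (-0.027) did so, and with the covariate Pdk2 (-0.079), Pdk4 (-0.62) and Gbe1 (-0.054). With a library left out, signs turned for Hk1 (-0.030 to 0.16), Pfkp (-0.049 to 0.13), Pgam1 (-0.14 to 0.23), Pdha1 (-0.34 to 0.015), Pdk4 (-0.30 to 0.54), Pygm (-0.23 to 0.031), the smooth muscle level (-0.16 to 0.0021) and the ratios Aldoc to Aldoa (-0.42 to 0.0064), Eno2 to Eno1 (-0.44 to 0.062), Pdk4 to Pdk2 (-0.48 to 0.11) and Pygm to Pygb (-0.015 to 0.19). Adding near-identical copies to 7 members, chosen after seeing the data, called 0 members. The causes were not tested. FPKM keep no read counts, so counting error is unknown.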

Other observations

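Ppp1r3c, a glycogen-targeting subunit of protein phosphatase 1 that promotes glycogen storage, was singled out after its values were seen. It had 14.3, 0.0017, 12.9 and 13.1 FPKM in nitroglycerin libraries 1 to 4, against 4.40, 0.251, 0.129 and 0 FPKM in control libraries 1 to 4. Nitroglycerin 2 was near 0 and the other nitroglycerin libraries were above every control library. The log2 difference was 2.16 (SE 0.92), with an adjusted p of 0.133 by limma, and 1.89 after rescaling. An exact 0 may be a failed estimate.

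Pck1, the gluconeogenic and glyceroneogenic carboxykinase, had 29.1, 2.14, 0.613 and 1.70 FPKM in nitroglycerin libraries 1 to 4, against 6.48, 1.64, 0.416 and 0.299 FPKM in control libraries 1 to 4. Within each group it was highest in library 1. Pfkfb3, which makes the activator of phosphofructokinase, averaged 7.23 ± 3.22 FPKM in nitroglycerin libraries and 4.46 ± 0.827 FPKM in control libraries (SD, n = 4 each), and nitroglycerin 1 was again the highest at 11.8 FPKM. Its log2 difference was 0.53 (SE 0.25), with an adjusted p of 0.161 by limma, and 0.20 after rescaling. Txnip, a glucose-responsive gene, had 262, 108, 212 and 312 FPKM in nitroglycerin libraries 1 to 4, against 207, 137, 251 and 167 FPKM in control libraries 1 to 4, with wide overlap.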
